A study of Mus musculus with 8 samples.

Results

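The genes described are 37 of endoplasmic reticulum (ER) stress and protein folding, measured in MIN6 cells, a mouse insulin-producing β-cell line, after transfection with a Klf4 plasmid. They were chosen by symbol and were read from a table of 55536 genes. All 37 were in the table and all 37 passed the filter on low counts that left 18266 genes for testing. A second row named Ddit3 (ENSMUSG00000116429) had no count in any library and was not used. In the annotation its exon lies within the main Ddit3 gene, so reads shared by both may be missing from Ddit3.

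Wild-type MIN6 cells were transfected for 48 h with Lipofectamine 3000, a lipid reagent that carries plasmids into cells. Control cells received pcDNA 3 without an insert, and the other cells received pGloMyc-Klf4, which expresses the zinc-finger transcription factor Klf4. Each group had 4 replicates, called biological by the submitters, with 1 and 2 in batch 1 and 3 and 4 in batch 2 by the labels. All cells were of 1 line and were sampled at 1 time point after transfection, and the plasmid names differ in more than the insert. The effects of Klf4 and of the plasmid backbone therefore cannot be told apart. No untransfected group is among the samples, and the share of cells that took up plasmid is not given.

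The ER folds secreted and membrane proteins, and a β cell loads it heavily with proinsulin. Unfolded protein is sensed by Atf6, Ern1 (IRE1α) and Eif2ak3 (PERK), which together set off the unfolded protein response. Atf6 and Xbp1, the factor whose transcript Ern1 splices, raise chaperones and ER-associated degradation (ERAD), the route by which misfolded proteins leave the ER for the proteasome. Eif2ak3 phosphorylates the initiation factor eIF2, which lowers protein synthesis and raises translation of Atf4. Atf4 in turn raises genes of amino acid supply and, in prolonged stress, Ddit3 (CHOP). Read counts per gene show transcript amounts, not splicing of Xbp1, cleavage of Atf6 or translation of Atf4.

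The regulatory letters behind these arms were read from the RefSeq promoter table of GRCm38.p6, which gives 250 bases before and 50 bases after each start site and held 33 of the 37 genes. No promoter was matched for Hyou1, Manf, Atf6 and Derl1. The ER stress response element (ERSE, CCAAT then 9 bases of any kind then CCACG, searched on both strands) is the letter pattern bound by Atf6 with the factor NF-Y. It was found in 10 of the 33 genes (30.3%) and in 37 of 27025 genes with a promoter in the table (0.137%). The sites are shown because chaperone, ERAD and oxidase genes share them. Each run is read in the direction of the element, with the element in capitals, and Hsp90b1 holds a pair of them.
Hspa5, chr2:34772020-34772048, plus strand: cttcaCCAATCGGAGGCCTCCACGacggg
Hsp90b1, chr10:86705633-86705661, minus strand: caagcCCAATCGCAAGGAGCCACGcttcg
Hsp90b1, chr10:86705528-86705556, plus strand: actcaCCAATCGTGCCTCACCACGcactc
Dnajc3, chr14:118937822-118937850, plus strand: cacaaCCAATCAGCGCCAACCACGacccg
Creld2, chr15:88819515-88819543, minus strand: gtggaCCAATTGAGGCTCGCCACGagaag
Calr, chr8:84847070-84847098, plus strand: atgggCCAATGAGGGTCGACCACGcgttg
Canx, chr11:50325795-50325823, minus strand: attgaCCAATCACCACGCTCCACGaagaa
Pdia6, chr12:17266486-17266514, plus strand: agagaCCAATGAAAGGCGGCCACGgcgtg
Ero1lb, chr13:12565677-12565705, minus strand: ggcggCCAATGAGGCGGGACCACGaggcc
Syvn1, chr19:6046527-6046555, plus strand: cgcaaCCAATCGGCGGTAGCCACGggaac
Derl3, chr10:75893237-75893265, minus strand: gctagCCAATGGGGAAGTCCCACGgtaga

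The end of the element farther from the start site lay between 44 bases (Syvn1) and 212 bases (the outer Hsp90b1 site) upstream of the RefSeq start site. GENCODE M21 places the start of Hspa5 farther out, at 34771970, so that its element lies within the gene in that annotation. The related ERSE-II (ATTGG, 1 base, CCACG) was found in Herpud1 and Dnajb11, which is 6.06% of the genes against 0.0444% of all. The ATF4 element (TGATG, 1 base, AA), where Atf4 binds with C/EBP partners, was found in Asns, Chac1, Herpud1 and Trib3, 12.1% against 4.51% of all. The unfolded protein response core TGACGTG was found in Hspa5 alone (3.03% against 2.22%). KLF-type letters (GGGTGTG or GGGCGTG) were found in 9 genes, 27.3% against 17.5%. The Herpud1 site of ERSE-II is shown first and the ATF4 elements upstream of a RefSeq start site follow, with the element in capitals. As with Hspa5, the Asns element lies within the gene in GENCODE M21, which places the start of Asns at 7693254. The Dnajb11 and Trib3 sites lie after the RefSeq start site.
Herpud1, chr8:94386372-94386392, plus strand: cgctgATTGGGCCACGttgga
Herpud1, chr8:94386312-94386329, minus strand: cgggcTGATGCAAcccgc
Chac1, chr2:119351044-119351061, minus strand: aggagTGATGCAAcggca
Asns, chr6:7693220-7693237, minus strand: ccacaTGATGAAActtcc

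A match of letters is a description of the window and not evidence of binding in these cells.

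Libraries held 45417853 to 52731176 counts, with totals that did not separate the groups (two-sided exact permutation p = 0.229, smallest possible 0.0286). The label check gave 36.1 to 42.8 CPM (counts normalised to a common library size with TMM factors) of Klf4 in the control libraries and 4529 to 5849 CPM in those with the Klf4 plasmid. This was a log2 fold change of 6.97 (edgeR adjusted p = 1.21e-25, SE 0.07). All 8 β-cell markers were detected and tested, and their summed level spanned 24347.9 to 31060.1 CPM in control and 22823.7 to 31365.2 CPM with Klf4, with 4 of the 8 lower by edgeR's test. The lower ones were Iapp, G6pc2, Slc30a8 and Ero1lb, the last itself among the ER genes described. Ins1, Ins2, Slc2a2 and Ucn3 did not pass. The 4 alpha-cell markers summed to 761.8 to 892.3 CPM in control and 746.9 to 854.5 CPM with Klf4. Among them Irx2 was higher and Gc lower by edgeR's test. The 5 acinar and 2 delta-cell markers were under the filter, with sums of at most 0.341 CPM, though none was at 0 in all libraries. Endothelial markers summed to 3.82 to 4.15 CPM in control and 4.49 to 4.95 CPM with Klf4 (1 of 2 tested higher, Cdh5). Leukocyte markers summed to 5.93 to 6.55 and 5.97 to 7.39 CPM (0 of 2 tested passed). Duct markers summed to 2.53 to 4.31 CPM in control and 6.78 to 7.75 CPM with Klf4 (2 of 3 tested higher), and fibroblast markers to 2.61 to 3.86 and 20.2 to 26.6 CPM (2 of 3 tested higher). Most of the fibroblast sum with Klf4 was Dcn, at a mean of 17.6 CPM against 0.046 CPM in control, and most of the duct difference was Krt19 (3.24 against 0.237 CPM). Col1a2 did not pass (0.09, edgeR adjusted p = 0.734), and Col3a1 was under the filter, at means of 0.0106 and 0.0145 CPM. The part of these markers in the results on the ER genes was not tested. In bulk RNA, fewer cells of a type and less RNA per cell cannot be told apart.

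Levels per exon length, as reads per kilobase of exon at a common library size (RPKM), were first compared among the genes in the 4 control libraries. Hspa5 (BiP), the central chaperone of the ER lumen, and Calr, the calcium-binding lectin calreticulin, headed the order at 582 ± 41.04 and 566 ± 15.2 RPKM (SD, n = 4), closer than their summed SDs. Hsp90b1, the ER form of HSP90, followed at 471 ± 37.4 RPKM and P4hb, the classical protein disulfide isomerase, at 428 ± 21.1 RPKM, again within their spread. Pdia3 (303 ± 7.13 RPKM) and Pdia6 (164 ± 9.11 RPKM) each stood apart from their neighbours. Canx and Atf4, at 153 ± 1.44 and 149.8 ± 6.35 RPKM, did not, and Atf4 was the highest of the regulators. Below them came a run from Hyou1 (112 ± 11.7 RPKM) to Sdf2l1 (95.6 ± 10.7 RPKM) in which no step between neighbours exceeded the spread. The median gene, Dnajb9, was at 40.3 ± 3.64 RPKM. The sensors stood low in the order, with Atf6 at 16.3 ± 0.333, Ern1 at 9.27 ± 1.11 and Eif2ak3 at 8.83 ± 0.569 RPKM, among the last 8 ranks. Each of the last 6 genes of the order, from Derl2 down to Eif2ak3, lay within the spread of its neighbour.

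**Figure D1:**
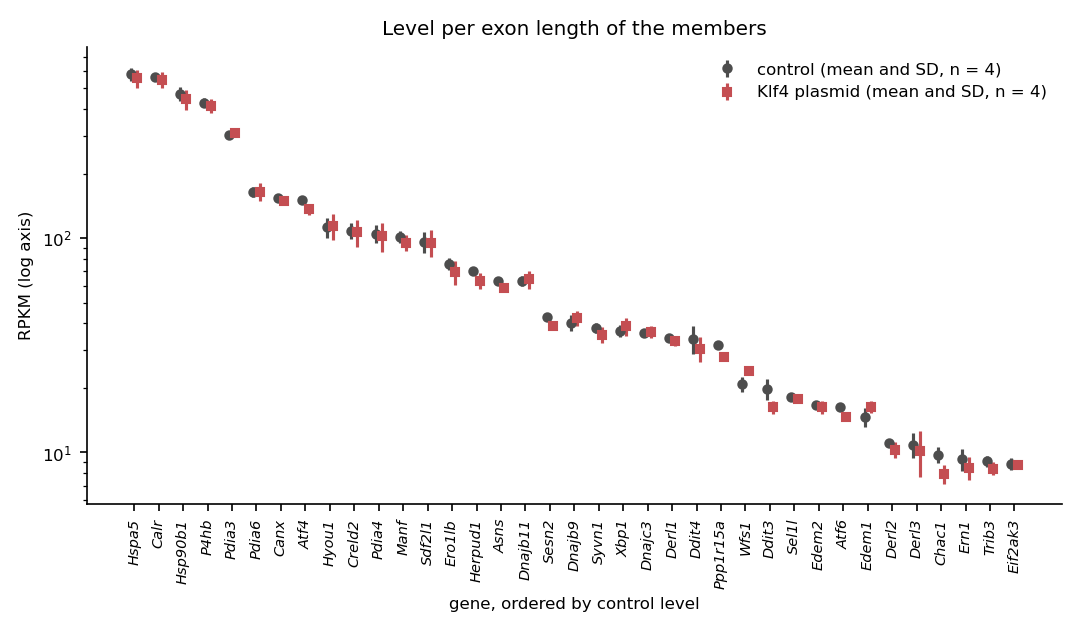
Level of each gene in RPKM (log axis), ordered by the control mean, with circles for control and squares for the Klf4 plasmid (mean and SD, n = 4). Control levels run from 582 RPKM for Hspa5 to 8.83 RPKM for Eif2ak3, and the symbols of the groups lie close together for every gene.

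The first comparison asked how the Klf4 plasmid changed these genes. With a term for batch, 16 of the 37 fell and 2, Wfs1 and Edem1, rose (edgeR's quasi-likelihood test, Benjamini-Hochberg adjusted p under 0.05 over all tested genes), and 19 did not pass. Changes in this fit ran from -0.30 for Chac1 to 0.20 for Wfs1 on the log2 scale, and Chac1, at -0.298, came closest to a size of 0.3. Over all tested genes 36.6% passed, 15.5% lower and 21.1% higher, and the median log2 fold change was -0.01 against -0.05 for the 37. Calls of lower genes were more frequent among abundant genes: of the 4006 genes whose mean log2 CPM reached 6, 31.4% were lower and 15.9% higher, and of the 30 ER genes that abundant 13 were lower and 2 higher. The calls rest on the batch term. Without it 5 genes were lower and 1 higher.

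The call also depends on the scaling. With factors from abundant genes alone, 11 were lower and 5 higher, and with an offset for GC content and exon length 26 were lower and 2 higher. Under the offset several genes moved further below 0, with log2 fold changes of -0.50 for Chac1, -0.39 for Sesn2, -0.36 for Ppp1r15a and for Ddit4, -0.33 for Syvn1, -0.30 for Atf4, -0.25 for Herpud1 and -0.15 for Manf. The 10 genes that passed as lower with the offset but not in the main analysis were Trib3 (-0.36), Derl3 (-0.32), P4hb (-0.18), Sdf2l1 (-0.17), Creld2 (-0.15), Edem2 (-0.15), Eif2ak3 (-0.10), Calr (-0.09), Hyou1 (-0.09) and Derl1 (-0.08). Among the calls over all genes, 57.7% were higher in the main analysis, 72.7% with those factors and 37.9% with that offset. In 6 genes the 4 libraries with Klf4 all lay below the 4 control libraries, against 8.95% of all tested genes. They were Atf6, Ddit3, Ppp1r15a, Asns, Sesn2 and Canx, the last of which did not pass the test. In 1 gene, Wfs1, they all lay above, against 17.2% of all tested genes.

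**Figure D2:**
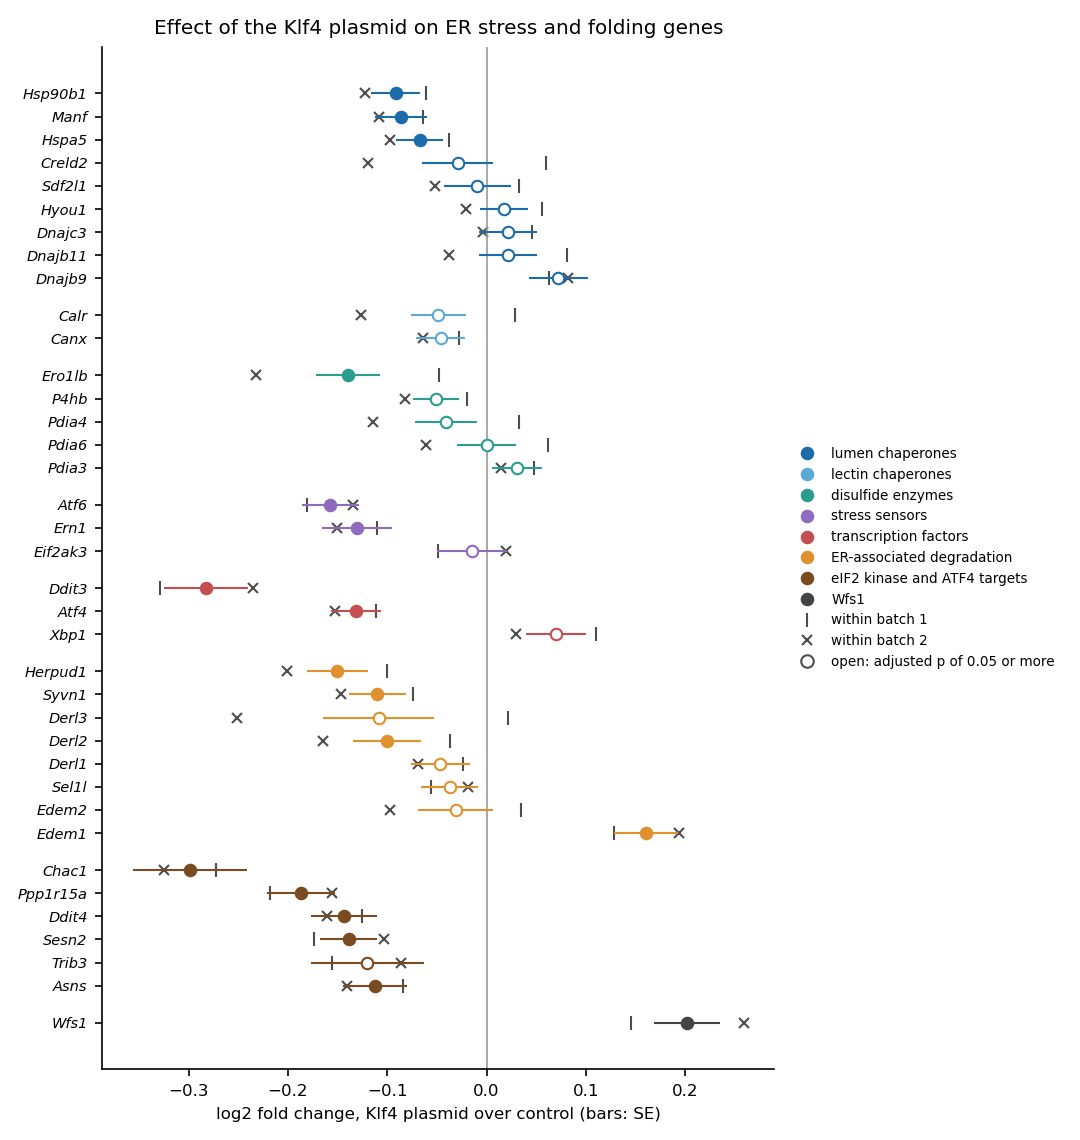
Log2 fold change of each gene, Klf4 plasmid over control, grouped by role, with its SE (filled: adjusted p under 0.05), and the values within batch 1 (ticks) and batch 2 (crosses). All symbols lie between -0.33 and 0.26, and the filled symbols left of 0 number 16 against 2 on the right.

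Among the sensors of the ER membrane, Atf6 and Ern1 fell and Eif2ak3 did not pass. Gene positions are given on GRCm38 as annotated by GENCODE M21. Atf6 (chr1:170704674-170867771, minus strand), the precursor of a factor released by cleavage in the Golgi, had 146, 154, 150.2 and 151 CPM in control replicates 1 to 4 and 133, 131, 139 and 135 CPM in Klf4 replicates 1 to 4. The groups did not overlap, and the log2 fold change was -0.16 (edgeR adjusted p = 0.000135, SE 0.03). Ern1 (chr11:106394650-106487852, minus strand), a kinase and endoribonuclease, had 79.5, 86.7, 66.3 and 70.7 CPM in control and 76.9, 77.04, 61.3 and 62.1 CPM with Klf4. Its libraries overlapped between groups, those of batch 2 being low in both, and within each batch both Klf4 libraries lay below both controls. The log2 fold change of Ern1 was -0.13 (edgeR adjusted p = 0.00539, SE 0.04). Eif2ak3 (chr6:70844515-70905245, plus strand), the eIF2 kinase of the ER, had 57.5, 54.6, 50.4 and 50.4 CPM in control and 53.9, 54.4, 51.6 and 50.7 CPM with Klf4, a log2 fold change of -0.01 (edgeR adjusted p = 0.796, SE 0.04). The Eif2ak3 libraries of the groups were interleaved, and 8.05% of its exons overlap another gene.

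Among the transcription factors, Ddit3 and Atf4 fell and Xbp1 did not pass. Ddit3 (chr10:127290774-127296288, plus strand), the pro-apoptotic factor CHOP, had 37.3, 36.97, 30.3 and 31.2 CPM in control and 30.2, 28.9, 25.96 and 26.3 CPM with Klf4. Every Klf4 library lay below every control library, and Ddit3 fell by 17.98%, a log2 fold change of -0.28 (edgeR adjusted p = 1.22e-05, SE 0.04). In the annotation 10.9% of the Ddit3 exons overlap other genes, Mars among them, and whether reads were counted by strand is not known. Atf4 (chr15:80255184-80257541, plus strand) had 369, 363, 338 and 344 CPM in control and 334, 343, 306 and 307 CPM with Klf4. Both Klf4 libraries lay below both controls in each batch, and the log2 fold change of Atf4 was -0.13 (edgeR adjusted p = 0.000226, SE 0.03). Xbp1 (chr11:5520659-5525893, plus strand), counted with its spliced and unspliced forms together, had 126, 127, 112 and 115 CPM in control and 139, 133, 116 and 116 CPM with Klf4. The Klf4 libraries were higher within each batch, by 0.11 in batch 1 and 0.03 in batch 2 on the log2 scale, but the pooled 0.07 (edgeR adjusted p = 0.0749, SE 0.03) did not pass. Xbp1 passed as higher with a filter of 1 CPM in 4 libraries (0.08) and with the abundant-gene factors (0.10), and with the GC and length offset its value was -0.04.

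Of 6 targets of the eIF2 kinase and Atf4 arm, 5 fell and Trib3 did not pass, where 15.5% of all tested genes were lower. All 6 values were negative in both batches, and none turned positive under any alternative tried. Chac1 (chr2:119351229-119354381, plus strand), an enzyme that degrades glutathione, had 16.5, 17.6, 14.3 and 15.6 CPM in control and 14.3, 13.9, 11.9 and 11.9 CPM with Klf4. In each batch both Klf4 libraries lay below both controls, and Chac1 fell by 18.6%, with a log2 fold change of -0.30 (edgeR adjusted p = 0.000244, SE 0.06). Ppp1r15a (GADD34), the phosphatase subunit that restores eIF2, had 94.6, 96.1, 95.1 and 86.7 CPM in control and 80.95, 83.00, 80.2 and 83.1 CPM with Klf4. The groups did not overlap although control replicate 4 stood below the other controls, and the log2 fold change was -0.19 (edgeR adjusted p = 0.000129, SE 0.03). Sesn2, a stress-induced inhibitor of the growth kinase complex mTORC1, had 149, 148, 149 and 151 CPM in control and 131, 132, 136 and 143 CPM with Klf4. Its controls were nearly level, the Klf4 libraries lay below all of them, and the log2 fold change was -0.14 (edgeR adjusted p = 0.000543, SE 0.03).

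Asns, the asparagine synthetase, had 171, 168, 169 and 182 CPM in control and 155, 166, 156 and 163 CPM with Klf4. These groups too were separate, by a small gap, with a log2 fold change of -0.11 (edgeR adjusted p = 0.0081, SE 0.03) that was lost with the abundant-gene factors (-0.08). Ddit4 (REDD1), another inhibitor of mTORC1, had 51.1, 52.04, 67.9 and 66.1 CPM in control and 47.4, 47.2, 59.7 and 60.2 CPM with Klf4. The groups overlapped, batch 2 being higher in both, and within a batch the Klf4 libraries were the lower, with a log2 fold change of -0.14 (edgeR adjusted p = 0.00161, SE 0.03). Trib3, a pseudokinase, had 19.4, 18.7, 18.5 and 21.04 CPM in control and 17.1, 17.1, 17.5 and 19.7 CPM with Klf4. Its libraries overlapped, with the highest of each group in replicate 4, and the log2 fold change was -0.12 (edgeR adjusted p = 0.107, SE 0.06). Trib3 passed as lower with the GC and length offset (-0.36), without control replicate 3 (-0.18) and without Klf4 replicate 4 (-0.17). The summed level of the 6 genes was 501 to 523 CPM in control and 446 to 480.4 CPM with Klf4.

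Of 9 chaperones and co-chaperones of the ER lumen, 3 fell (Hsp90b1, Manf and Hspa5), 0 rose in edgeR, DESeq2 or limma-voom (1 was higher at an unadjusted p under 0.05), and the median log2 fold change was -0.01. All 9 had a mean log2 CPM of at least 6, and 31.4% of all tested genes that abundant were lower. Hspa5 (chr2:34771970-34777547, plus strand) had 2625, 2592, 2282 and 2342 CPM in control and 2598, 2484, 2195 and 2127 CPM with Klf4. The groups overlapped and the libraries followed batch more than plasmid. Hspa5 fell by 4.44% with a log2 fold change of -0.07 (edgeR adjusted p = 0.0266, SE 0.02), a call lost without control replicate 4 (-0.06), without Klf4 replicate 4 (-0.06), with the 1 CPM filter (-0.06), with the abundant-gene factors (-0.03) and with the GC and length offset and replicate block together (-0.06). Hsp90b1 had a log2 fold change of -0.09 (edgeR adjusted p = 0.00515, SE 0.02) and Manf, a secreted factor that binds Hspa5, -0.09 (edgeR adjusted p = 0.0116, SE 0.03). Both calls were lost with the abundant-gene factors, and that of Hsp90b1 also with the offset and replicate block together (-0.06). In the annotation 15.7% of Hsp90b1 and 9.25% of Manf exons overlap other genes.

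The J-domain co-chaperones that hand clients to Hspa5 had values of 0.07 for Dnajb9, 0.02 for Dnajb11 and 0.02 for Dnajc3. Hyou1, which exchanges the nucleotide of Hspa5, was at 0.02, and Sdf2l1, a partner of Dnajb11, at -0.01. Creld2, an ER stress gene with isomerase activity, was at -0.03, and none of these 6 passed. Dnajb9 passed as higher with the 1 CPM filter (0.08), the abundant-gene factors (0.11) and the GC and length offset (0.13). The lectin chaperones Calr and Canx hold glycoproteins during folding. Calr had -0.05 and Canx -0.05 on the log2 scale, with edgeR adjusted p of 0.185 and 0.159. Without control replicate 2, Calr (-0.09) and Creld2 (-0.09) passed as lower. Calr was at 0.03 in batch 1 and -0.13 in batch 2.

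Of 5 enzymes of disulfide formation, 1 fell, where 15.5% of all tested genes were lower. The enzyme that fell was Ero1lb. It encodes the pancreatic form of the oxidase that recharges disulfide isomerases, and it is also a β-cell marker. Ero1lb (chr13:12565874-12611396, plus strand) had 538, 520.4, 487 and 473 CPM in control and 505, 519, 416 and 401 CPM with Klf4. The Klf4 libraries of batch 2 were the lowest of all 8 and those of batch 1 lay below the batch 1 controls, for a log2 fold change of -0.14 (edgeR adjusted p = 0.00158, SE 0.03). Within batches it was -0.05 and -0.23, and the difference between batches did not pass (edgeR adjusted p = 0.0781). The isomerases P4hb (-0.05), Pdia4 (-0.04), Pdia6 (0.00) and Pdia3 (0.03), the last of which works with the lectin chaperones, did not pass. P4hb was closest, at an edgeR adjusted p of 0.0966, and passed as lower with DESeq2 and with limma-voom. Without control replicate 2, P4hb (-0.08) and Pdia4 (-0.08) passed as lower, and without Klf4 replicate 1 so did P4hb (-0.07).

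ERAD genes moved both ways: of 8, 3 fell, 1 rose and 4 did not pass. Over all tested genes 15.5% were lower and 21.1% higher. Herpud1, a membrane protein that gathers the degradation complex, had 173, 166, 157 and 159 CPM in control and 159.6, 157, 134 and 141 CPM with Klf4. In each batch both Klf4 libraries lay below both controls, and the log2 fold change was -0.15 (edgeR adjusted p = 0.000433, SE 0.03). Syvn1 (HRD1), the ubiquitin ligase of the complex, was at -0.11 (edgeR adjusted p = 0.00406, SE 0.03). Derl2, a derlin that helps proteins out through the membrane, was at -0.10 (edgeR adjusted p = 0.025, SE 0.03), a call lost without control replicate 3, control replicate 4 or Klf4 replicate 4, with the abundant-gene factors (-0.07) and with the GC and length offset and replicate block together (-0.08). Sel1l, the partner of Syvn1, was at -0.04, Derl1 at -0.05, Derl3 at -0.11 and Edem2 at -0.03, and these did not pass. Without control replicate 2 Derl3 passed as lower, at -0.16.

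Edem1, a lectin that passes misfolded glycoproteins to degradation, went up. It had 105, 98.9, 84.7 and 88.8 CPM in control and 110.4, 112, 100.4 and 98.04 CPM with Klf4. In each batch both Klf4 libraries lay above both controls, while the groups as a whole overlapped, and the log2 fold change was 0.16 (edgeR adjusted p = 0.000343, SE 0.03). Wfs1 (chr5:36966104-36989205, minus strand), an ER membrane protein abundant in β cells and mutated in Wolfram syndrome, had 84.2, 84.2, 72.8 and 74.1 CPM in control and 95.7, 90.5, 89.2 and 86.6 CPM with Klf4. All Klf4 libraries lay above all controls, and the log2 fold change was 0.20 (edgeR adjusted p = 4.12e-05, SE 0.03). This call was lost with the GC and length offset, under which the value was -0.03, so the direction of Wfs1 depends on that correction.

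Within batches, 9 of the 37 genes passed in batch 1, where 23.5% of all tested genes did, and 23 in batch 2, where 32% did. The median log2 fold changes of the 37 were -0.04 and -0.10, and 26 genes had the same sign in both batches, as did 13584 of the 18266 tested genes. The lumen chaperones were on opposite sides of 0, with medians of 0.05 in batch 1 and -0.05 in batch 2, and 4 of 9 had the same sign in both. The eIF2 and Atf4 targets had medians of -0.16 and -0.15. The difference between batches was tested for each gene with an interaction term, and 0 of 37 passed in edgeR, where 0.766% of all tested genes did. At an unadjusted p under 0.05 there were 8. The share of all tested genes at that unadjusted p was not counted, so the 8 cannot be set against the 0.766%. The lowest edgeR adjusted p were 0.0719 for Calr and 0.0781 for Ero1lb. DESeq2 called Calr, with an effect of batch 2 minus batch 1 of -0.15 (adjusted p = 0.0467).

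More of these genes differed between batches than between plasmids. Adjusted for plasmid, 28 of the 37 were lower in batch 2 and 1 was higher, where 25.1% of all tested genes differed, 11.6% lower and 13.4% higher (edgeR's quasi-likelihood test). The median difference was -0.15 on the log2 scale for the 37 and 0.01 for all tested genes. Among the 4006 abundant genes 17.9% were lower in batch 2, and among the 30 abundant ER genes 24 were. The labels give the batch as a number only, and what differed between batches is not stated. Most of the 37 also passed as lower in batch 2 with DESeq2, with the abundant-gene factors and with the GC and length offset. In each of these 1 passed as higher.

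All 9 lumen chaperones, all 5 disulfide enzymes and all 3 transcription factors were lower in batch 2, as were 6 of 8 ERAD genes. Derl3, a derlin of secretory tissue, differed most, with 24.5, 23.8, 19.2 and 19.03 CPM in control and 24.3, 24.7, 15.96 and 16.1 CPM with Klf4. The 4 libraries of batch 2 were the lowest, and the log2 difference was -0.47 (edgeR adjusted p = 1.76e-06, SE 0.06). Sdf2l1 had 119, 113, 97.5 and 94.5 CPM in control and 120.2, 117, 88.8 and 96.4 CPM with Klf4, a log2 difference of -0.31 (edgeR adjusted p = 5.91e-07, SE 0.03). Pdia4 had 277, 266, 227 and 233 CPM in control and 284, 271, 216 and 209 CPM with Klf4, a log2 difference of -0.31 (edgeR adjusted p = 2.09e-07, SE 0.03). For both genes, batch 2 lay below batch 1 in all 4 libraries. Hyou1 had 891, 876, 731 and 744 CPM in control and 924, 913, 725 and 729 CPM with Klf4, with a log2 difference of -0.30 (edgeR adjusted p = 8.97e-09, SE 0.02) and again no overlap between batches. The sensor Ern1 was close behind at -0.30, and Hspa5 was at -0.20.

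Of the 6 eIF2 and Atf4 targets, 1 was lower in batch 2 (Chac1, -0.22) and 1 higher. The higher one was Ddit4, whose 4 batch 2 libraries lay above the 4 of batch 1, with a log2 difference of 0.36 (edgeR adjusted p = 6.16e-08, SE 0.03). Asns (0.02), Sesn2 (0.05), Trib3 (0.09) and Ppp1r15a (-0.04) did not pass. Insulin transcripts moved with batch as well: Ins1 and Ins2 made up 2.24% to 2.38% of counts in the 4 libraries of batch 1 and 1.58% to 1.73% in those of batch 2. Their part in the difference of the ER genes was not tested. The summed level of the 37 genes was 14718.9 to 15186.2 CPM in batch 1 and 12843 to 13857.7 CPM in batch 2.

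**Figure D3:**
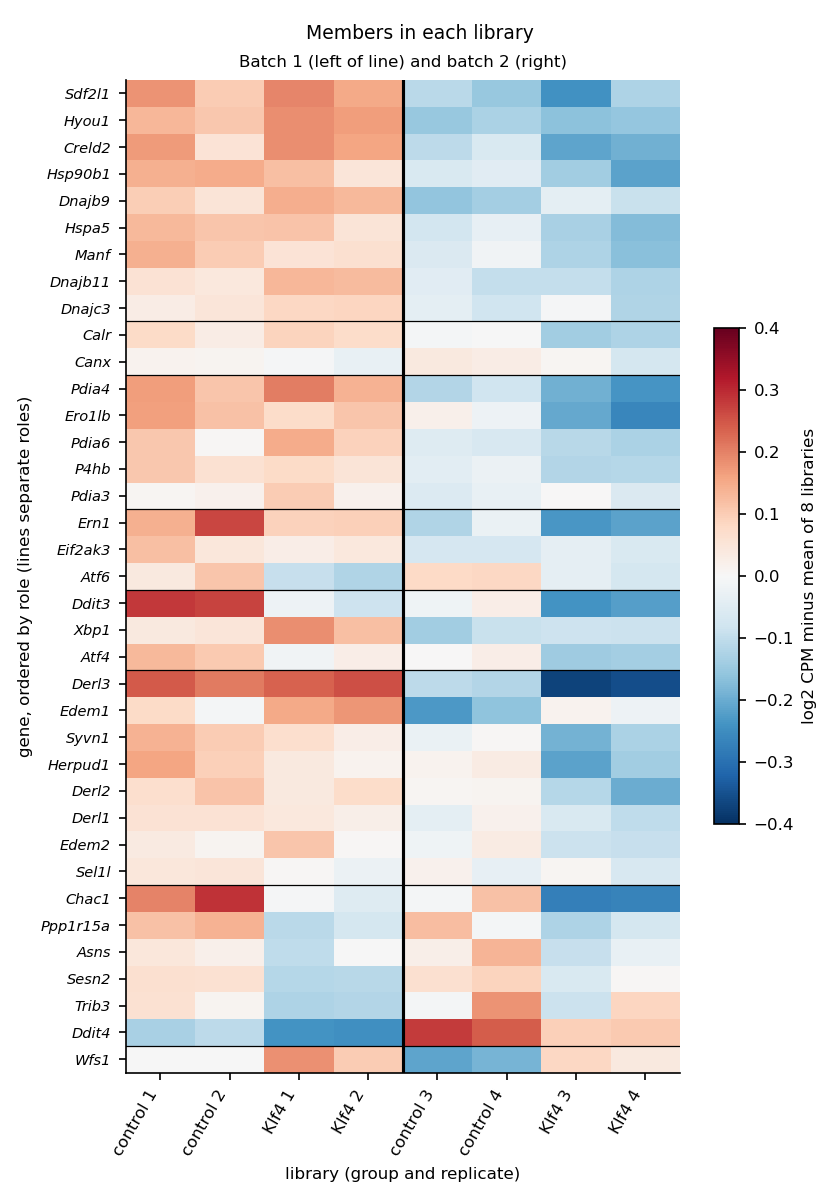
Log2 CPM of each gene in each library minus its mean over the 8 libraries, batch 1 left of the line and batch 2 right, with genes grouped by role. Most rows change from red to blue at the line between batches, Ddit4 changes the other way, and the rows of Ddit3, Chac1 and Atf6 also differ between control and Klf4 within a batch.

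**Figure D4:**
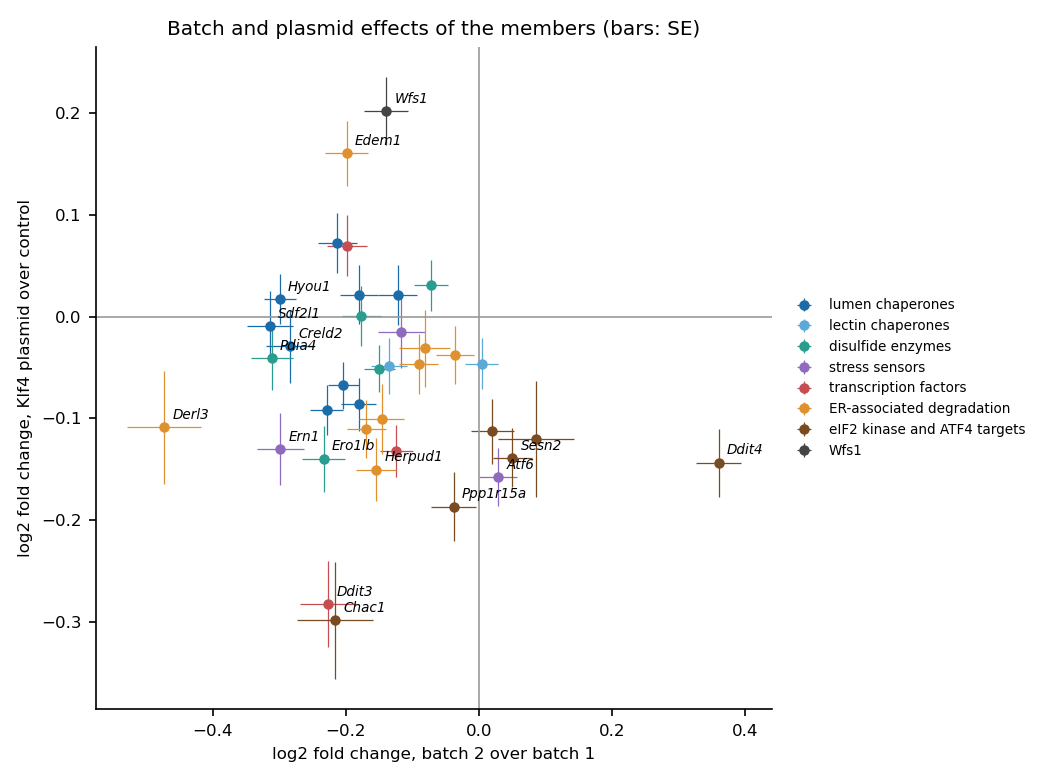
Log2 difference between batches (x axis, batch 2 over batch 1) against log2 fold change of the Klf4 plasmid (y axis), 1 symbol for each gene, with SE bars and colours for roles. Chaperones and disulfide enzymes spread to the left near the middle of the y axis, while the eIF2 and Atf4 targets sit below 0 on the y axis and mostly near 0 on the x axis.

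The promoter letters were set beside these values. Of the 10 genes with an ERSE, 4 fell with Klf4 (Hspa5, Hsp90b1, Ero1lb and Syvn1) and the other 6 did not pass, with a median log2 fold change of -0.06. Of the 23 genes with a promoter in the table and no ERSE, 10 fell and 2 rose, with a median of -0.05. Between batches, 9 of the 10 with an ERSE were lower in batch 2, all but Canx, with a median of -0.19, against 16 of 23 and -0.15 without. The 11 tested genes with an ERSE that are outside the 37 had 1 lower and 2 higher with Klf4, with a median of -0.05. Between batches they had 3 lower and 1 higher in batch 2, with a median of -0.11. Over all tested genes 15.5% were lower with Klf4 and 11.6% were lower in batch 2. Of the 4 genes with an ATF4 element, Asns, Chac1 and Herpud1 fell with Klf4 and Trib3 did not pass, with a median of -0.14. Of the 29 with a promoter in the table and no ATF4 element, 11 fell and 2 rose, with a median of -0.05. These are counts over few genes and were not tested.

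A wider set of 201 named genes of the ER and of stress responses was read from the same fit, and 197 were tested. Of these, 36 were higher and 41 lower with Klf4, 39.1% in all against the 36.6% of all tested genes. In the machinery for entry and modification, 0 of 20 genes of the translocon and signal peptidase passed in edgeR (3 at an unadjusted p under 0.05, 1 with DESeq2, 0 with limma-voom). For N-glycosylation 2 of 18 passed, the oligosaccharyltransferase subunit Stt3b (0.10) and the folding sensor Uggt2 (-0.18). Among 21 other chaperones and co-chaperones 2 rose and 3 fell. They included the prolyl isomerase Fkbp14 (0.30), Cnpy2 (-0.12) and the HSP70-type Hspa13 (-0.09). A list of 16 other disulfide exchange enzymes, which also held collagen prolyl hydroxylases, had 2 that rose and 2 that fell. The hydroxylase P4ha2 (0.28) and Pdia5 (0.22) rose, and Txndc5 (-0.10) and Tmx1 (-0.09) fell. Of 20 other ERAD genes 1 rose, the lectin Os9 (0.13), and 3 fell, among them its relative Erlec1 (-0.12) and Selenos (-0.11). With the GC and length offset Os9 was at -0.07. The calls of Hspa13, Txndc5, Tmx1, Erlec1 and Selenos were lost with the abundant-gene factors. That of Fkbp14 was lost without control replicate 3 (0.25) and without Klf4 replicate 3 (0.20). The calls of Uggt2 (-0.15), Tmx1 (-0.07) and Hspa13 (-0.06) were lost without Klf4 replicate 4, those of Hspa13 (-0.09) and Txndc5 (-0.08) without control replicate 4, and that of Hspa13 (-0.09) without Klf4 replicate 2.

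Larger changes lay among other sensors, calcium channels and stress-induced factors. Over all tested genes, 8.5% passed with a log2 fold change of at least 1. Ern2, the epithelial relative of Ern1, had 3 to 8 counts in the control libraries and 180 to 231 counts with Klf4. Its normalised level was 0.106, 0.164, 0.0608 and 0.104 CPM in control and 4.47, 4.79, 3.97 and 3.41 CPM with Klf4, a log2 fold change of 5.23 (edgeR adjusted p = 5.65e-15, SE 0.22). Creb3l3, a membrane-bound factor of liver and gut, was at 1.05 (edgeR adjusted p = 1.09e-05, SE 0.16). The proteases that release Atf6, Mbtps2 (-0.13) and Mbtps1 (-0.08), fell slightly and lost their calls with the abundant-gene factors. Mbtps1 had an edgeR adjusted p of 0.0364, and of 0.0585 with the replicate number as a block. The call of Mbtps2 was also lost without Klf4 replicate 2 (-0.13) or 4 (-0.10), and that of Mbtps1 without control replicate 3 (-0.08) or Klf4 replicate 3 (-0.07). Exons of another gene overlap 28.4% of Mbtps2. Of 13 genes in this list of sensors and membrane-bound factors 4 rose and 2 fell, 46.2% in all against 36.6% of all tested genes.

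Among 13 eIF2 kinases, phosphatase partners and eIF2B subunits, 1 rose and 4 fell. This was 38.5% in all, near the 36.6% of all tested genes. Eif2ak4 (GCN2), the kinase that senses uncharged tRNA, had 25.4, 24.99, 25.7 and 24.2 CPM in control and 30.8, 31.9, 36.6 and 35.7 CPM with Klf4. The groups did not overlap, and the log2 fold change was 0.43 (edgeR adjusted p = 2.34e-07, SE 0.05). Impact, an inhibitor of that kinase, was at -0.22 (edgeR adjusted p = 3.09e-05, SE 0.04), and the eIF2B subunit Eif2b3 at -0.15 (edgeR adjusted p = 0.00378, SE 0.04). These lay in the opposite direction to Eif2ak4.

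Of 38 other Atf4 and amino acid response genes 11 rose and 16 fell, so the list held both directions. In all 71.1% passed, against 36.6% of all tested genes. Atf3, a stress-induced factor, had 19.02, 19.8, 16.1 and 13.00 CPM in control and 36.7, 35.6, 38.4 and 36.9 CPM with Klf4. All Klf4 libraries lay above all controls, and the log2 fold change was 1.13 (edgeR adjusted p = 2.4e-11, SE 0.07). Tnfrsf10b, a death receptor and target of Ddit3, was at 1.08 (edgeR adjusted p = 9.02e-08, SE 0.12). Among those that passed with a mean log2 CPM of at least 1, 2 were lowest. They were Stc2, a secreted glycoprotein induced by ER stress (-0.34), and Gpt2, a mitochondrial alanine aminotransferase (-0.24). The call of Stc2 was lost without Klf4 replicate 1 (-0.32). Cebpb (0.86) and Nupr1 (0.66), a partner of Atf4 and a stress protein, also rose, and were singled out after their values were seen. Exons of other genes overlap 20.7% of Cebpb.

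Calcium handling and ER-phagy had 7 of 17 genes higher and 4 lower, 64.7% in all against 36.6% of all tested genes. The inositol trisphosphate receptors, the channels that let calcium out of the ER, moved apart. Itpr3 had 21.7, 23.2, 18.7 and 18.8 CPM in control and 122, 121, 149 and 153 CPM with Klf4, a log2 fold change of 2.72 (edgeR adjusted p = 1.59e-18, SE 0.07). Itpr2 had 7.45, 10.4, 8.50 and 8.68 CPM in control and 19.4, 19.7, 24.1 and 23.97 CPM with Klf4, a log2 fold change of 1.31 (edgeR adjusted p = 9.98e-12, SE 0.08). Itpr1 had 56.5, 57.5, 52.8 and 53.5 CPM in control and 46.3, 47.5, 43.04 and 43.9 CPM with Klf4, a log2 fold change of -0.29 (edgeR adjusted p = 5.86e-07, SE 0.03). For each of the 3 receptors the groups were separate, and the ER-phagy receptor Calcoco1 was lower (-0.22). In the cytosolic and mitochondrial heat shock list, read for contrast, 7 of 21 rose and 6 fell, 61.9% in all. Hspb1, a small heat shock protein, was at 3.12 from 13 to 28 control counts, Dnajb1 at 0.66, Hsph1 at -0.18 and the mitochondrial chaperone Hspa9 at -0.17.

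**Figure D5:**
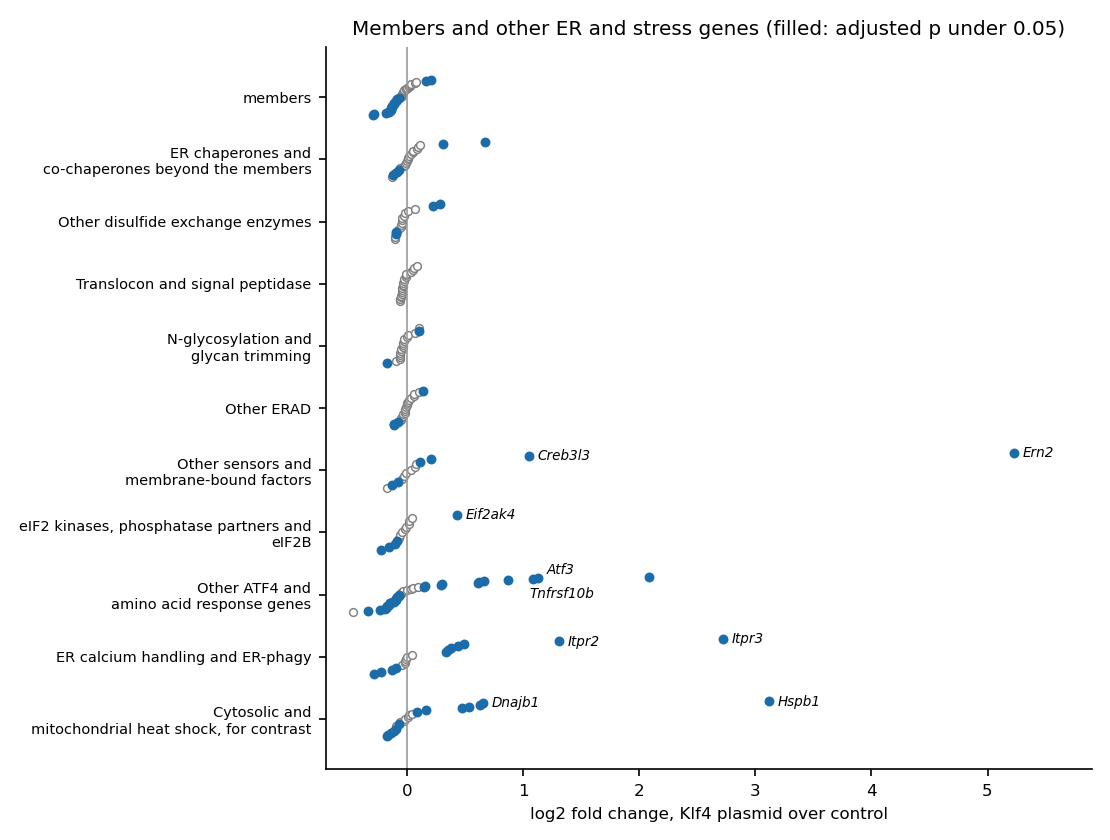
Log2 fold change, Klf4 plasmid over control, of the 37 genes (top row, members) and of the wider lists, 1 symbol for each gene (filled: adjusted p under 0.05). The 37 lie between -0.30 and 0.20, while Ern2, Hspb1, Itpr3 and a few others of the wider lists lie beyond 1.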

How the data were processed

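Polyadenylated RNA of 8 MIN6 libraries, 4 with an empty vector and 4 with the Klf4 plasmid, was made into libraries with a Tecan Universal Plus mRNA-seq kit, per the labels' protocols. The authors deposited raw counts of reads for each gene, 1 column a library, neither normalised nor pooled. STAR, featureCounts, FastQC, edgeR and the build mm10 are named in the submitters' processing notes, and their versions and the strand setting are not given in the sources used here. The extraction text speaks of islets, but every library is named as MIN6 and was treated so. All 55536 pairs of identifier and symbol matched GENCODE M21 (GRCm38), which gave positions, exon lengths and overlaps.

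The counts were fitted in edgeR 4.0.16 (R 4.3.3, limma 3.58.1) with filterByExpr (minimum count 10), TMM factors of 0.996 to 1.01, and terms for batch and plasmid, the design named by the series. P-values of the quasi-likelihood test were adjusted by the Benjamini-Hochberg method over 18266 genes. Changes "passed" at an adjusted p under 0.05. The SE is the log2 fold change divided by the root of F. The biological coefficient of variation, with batch in the model, was 4.08%. The p-values measure differences against the spread left between these libraries after the terms for batch and plasmid. RPKM came from the counts and exon union lengths.

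The members and all lists were chosen with earlier results of these data known. Values per library were to be given for genes past the threshold with an absolute log2 fold change of at least 0.3 (none qualified) and for Hspa5, Ddit3, Atf4, Xbp1, Ern1, Atf6, Eif2ak3 and Ero1lb. From each wider list the 2 highest and 2 lowest log2 fold changes past the threshold were named where mean log2 CPM reached 1, and for batch the 5 largest differences past the threshold. Library values of the other genes shown were chosen after values were seen. Of the 201 wider genes in the table, 4 did not pass the filter.

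Same-numbered libraries share a batch by the labels. Their deviations from the group means correlated at 0.638, 0.479, 0.590 and 0.551 over 10485 genes. With batch means removed the correlations were -0.0499 in batch 1 and 0.0865 in batch 2. With 2 libraries per group and batch, both pairs of a batch give the same value. The main fit had a term for batch and none for pairs, and the replicate number entered as a block in alternatives only. Alternatives were no batch term, the replicate number as a block, DESeq2 1.42.0 size factors and Wald test, limma-voom, other filters and scalings, stricter thresholds and fits that left out 1 library each. The scalings of the batch comparison were added after seeing the data. Promoter letters were searched with Python 3.11.15.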

Additional observations from a re-analysis of the deposited data

Results flagged for a closer look

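Of 144 groups of 4 libraries examined (total counts and the levels of named genes), 4 had a library far from the other 3. A rate of 1 in 20 would give 7.2. Each group spans 2 batches and the genes are not independent, so that rate cannot be used to judge the 4. Ppp1r15a was at 86.7 CPM in control replicate 4, against 94.6 to 96.1 CPM in the other controls. Sesn2 was at 151.4 CPM in control replicate 4, against 148.4 to 148.8 CPM. Trib3 was at 19.7 CPM in Klf4 replicate 4, against 17.1 to 17.5 CPM. The total of Klf4 replicate 2 was 45417853 counts, against 51891997 to 52731176 in the other Klf4 libraries.

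By edgeR's interaction test, 4 named genes outside the 37 responded differently to the plasmid in the 2 batches. In batch 2 minus batch 1, the log2 effect was 0.37 larger for Klf4 (adjusted p = 0.0057), 0.47 for Atf3 (adjusted p = 0.0191), 0.57 for Itpr3 (adjusted p = 1.34e-05) and 0.40 for Dnajb1 (adjusted p = 0.00126). Each of these genes was higher in every Klf4 library than in every control library.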

How the results depend on the processing

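The main counts were 16 ER genes lower and 2 higher (18 in all), 6684 genes changed and 77 of the wider lists. Without the batch term they were 5 and 1 (6 in all), 4116 and 43. With a minimum absolute log2 fold change of 0.5, 0 and 0 (0 in all), 2317 and 16 remained. Higher ER genes numbered 4 with a filter at 1 CPM and 5 with the abundant-gene factors, and the GC and length offset gave 28 in all, 26 of them lower. With the replicate block in place of batch, all 18 calls were kept at 16 lower and 2 higher, and of the other named genes Mbtps1 lost its call (-0.08). The offset with the replicate block gave 23 lower and 2 higher.

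Some values changed sign, that of Wfs1 from 0.20 and the others from nearer 0. With the offset, alone and then with the replicate block, Wfs1 was at -0.029 and -0.030, Hyou1 at -0.090 and -0.090, Dnajb11 at -0.035 and -0.035, Pdia6 at -0.023 and -0.023, Xbp1 at -0.043 and -0.043 and Os9 at -0.066 and -0.066. Pdia6 was at -0.0040 with DESeq2 size factors, -0.0039 with the DESeq2 test, -0.0099 without a filter and -0.011 without the 10 most abundant genes. With the abundant-gene factors Sdf2l1 was at 0.025, Creld2 at 0.0054, Eif2ak3 at 0.020 and Edem2 at 0.0034, and Sdf2l1 was at 0.0014 with the 1 CPM filter. The cause was not tested. Leaving out each library in turn gave 14 to 21 lower and 2 higher ER genes, with -0.0097 to 0.034 for Dnajb11, -0.0090 to 0.044 for Dnajc3, -0.011 to 0.022 for Hyou1, -0.048 to 0.011 for Pdia6 and -0.049 to 0.010 for Sdf2l1. The high count of 21 was without control replicate 2 and the low count of 14 without control replicate 4. Interaction calls rose to 265 genes and 2 ER genes (Calr and Ero1lb) with no filter, and DESeq2 gave 1 ER gene. Rescaling levels to TPM set the control median at 132 in place of 40.3. The lowest counts of the 37 were those of Chac1, down to 625 in a library, and counting error adds most to the spread for Chac1, Trib3 and Derl3, whose SE of 0.06 is the largest.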
